A study of Mus musculus with 24 samples.

Results

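The transcription factor NRF2, made from Nfe2l2, and its antioxidant target genes were followed in mouse thoracic aorta. The set held 10 genes chosen by name from the deposited count table of 25941 genes: Nfe2l2 itself, its repressor Keap1, and the targets Gclc, Gclm, Slc7a11, Txnrd1, Srxn1, Nqo1, Hmox1 and Osgin1. Each symbol matched 1 row, and all 10 passed the filter on low counts that left 14528 genes for testing. The study compared 3 groups of 8 libraries from adult male wild-type C57BL/6 mice aged 10 to 12 weeks. The labels do not say that each library is a separate mouse, so p-values measure the spread between libraries. The celecoxib group ate chow carrying the cyclooxygenase-2 inhibitor celecoxib at 100 mg/kg/day for 3 weeks, the rofecoxib group ate chow carrying the inhibitor rofecoxib at 50 mg/kg/day for 3 weeks, and the control group ate chow with no added drug. All mice, controls included, received an intraperitoneal dose of 10 ug/kg interleukin-1β, an inflammatory cytokine, 4 h before tissue collection at zeitgeber time 11, so no group shows the aorta without the cytokine. The drug doses were not matched.

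KEAP1 is the adaptor that delivers NRF2 to a ubiquitin ligase, so that NRF2 protein is broken down in unstressed cells. Oxidants and electrophiles modify cysteines of KEAP1, NRF2 then accumulates, pairs with small MAF proteins and binds antioxidant response elements near its targets. Those targets make glutathione, reduce oxidised thioredoxin and peroxiredoxin, reduce quinones and break down heme, and in the vessel wall the pathway is known for limiting oxidative damage to endothelium and smooth muscle. Because NRF2 is controlled mainly through its protein, the Nfe2l2 transcript is not a measure of its activity.

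Promoter sequence is shown for the 1 member that passed the test below, Srxn1, and for the 3 members in which the core of the antioxidant response element, TGACNNNGC, was found on either strand. RefSeq promoter windows, on GRCm38.p6, were matched for 8 of the 10 members. Hmox1 and Gclc were not matched, and Txnrd1 had 3 annotated starts. The 250 bases before each start were searched for TGACNNNGC and for the AP-1 type core TGACTCA, both strands, and matches are in capitals. Each line runs 5′ to 3′ on the strand of the gene. The windows are chr2:75704664-75704913 on the minus strand for Nfe2l2, chr2:152105274-152105523 on the plus strand for Srxn1, chr3:122245307-122245556 on the plus strand for Gclm and chr10:82858956-82859205 on the plus strand for 1 of the Txnrd1 starts.
Nfe2l2: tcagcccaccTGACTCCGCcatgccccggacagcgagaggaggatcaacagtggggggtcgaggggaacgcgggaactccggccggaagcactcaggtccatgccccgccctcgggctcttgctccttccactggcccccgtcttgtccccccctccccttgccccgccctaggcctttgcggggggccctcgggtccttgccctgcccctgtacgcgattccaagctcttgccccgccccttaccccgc
Gclm: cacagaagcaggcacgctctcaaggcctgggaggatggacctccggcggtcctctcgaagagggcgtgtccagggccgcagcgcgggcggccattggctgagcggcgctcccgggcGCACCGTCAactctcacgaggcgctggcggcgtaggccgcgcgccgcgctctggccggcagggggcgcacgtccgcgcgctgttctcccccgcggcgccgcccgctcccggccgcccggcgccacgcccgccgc
Txnrd1: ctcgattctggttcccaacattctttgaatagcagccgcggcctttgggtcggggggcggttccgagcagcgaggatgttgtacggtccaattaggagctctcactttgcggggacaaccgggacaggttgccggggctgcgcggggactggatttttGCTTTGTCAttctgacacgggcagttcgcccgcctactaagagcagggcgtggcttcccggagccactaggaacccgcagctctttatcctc
Srxn1: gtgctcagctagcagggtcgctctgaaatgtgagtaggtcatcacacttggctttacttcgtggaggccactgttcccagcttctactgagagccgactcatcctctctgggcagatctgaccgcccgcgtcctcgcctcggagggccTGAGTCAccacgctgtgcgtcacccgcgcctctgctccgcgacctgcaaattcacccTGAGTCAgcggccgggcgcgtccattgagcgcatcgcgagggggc
TGACNNNGC began 240 bases before the Nfe2l2 start on the strand of the gene, and 134 bases before the Gclm start and 92 bases before the Txnrd1 start on the opposite strand. TGACTCA stood 102 and 45 bases before the Srxn1 start, both on the opposite strand, and 97 bases before the Osgin1 start. No match of one motif overlapped a match of the other in these windows. Over all 32851 promoter windows of the same length, 10.2% held TGACNNNGC and 4.46% held TGACTCA. A match describes letters only, and elements further from the start were not searched. Other forms of the antioxidant response element were not searched either, so a window without TGACNNNGC, such as that of Srxn1, may still hold one.

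Each library held between 21668798 and 21700121 counted reads. The sources used here do not say whether reads were drawn down to a common number before deposit, so these totals may not be the sequenced depth, and scaling by library size alone leaves the counts almost as they are. Levels are CPM, the read count of a gene relative to the TMM-scaled total of its library, given as mean ± SD over 8 libraries. In this bulk tissue, fewer cells of a type and less RNA per cell cannot be told apart. The labelled tissue matched its markers: 7 contractile smooth muscle genes summed to between 27468 and 44126 CPM in every library. Markers of other tissue around the vessel were present as well, with 10 adipocyte genes at 1073 to 5676 CPM in sum, 11 macrophage genes at 136 to 440 CPM and 9 neutrophil genes at 11.2 to 133 CPM, and no gene of these 3 lists was at 0 in all libraries. With rofecoxib all 10 adipocyte, all 11 macrophage and all 7 tested neutrophil genes had log2 fold changes above 0, at medians of 0.78, 0.34 and 0.65, with 3, 1 and 0 of them called by edgeR. So had all 6 Schwann genes (median 1.09, 1 called), all 8 brown adipocyte genes (0.88, 0 called), all 9 endothelial genes (0.35, 3 called) and all 5 tested erythroid genes (0.30, 0 called), while all 7 smooth muscle genes and all 5 tested skeletal muscle genes were below 0 (medians of -0.12 and -0.65, 0 called). The skeletal muscle genes had a mean of 3.16 log2 CPM in control replicate 3, and of -0.49 to 0.14 in the other controls. The skeletal muscle covariate used in fits below carries that high value. How far the skeletal muscle differences rest on this library was not tested. The 7 fibroblast genes were mixed, 5 above and 2 below 0 (median 0.03), with 2 called lower. Over all genes 54.9% were above 0 with rofecoxib, with 3.88% called higher and 3.06% called lower. With celecoxib 9 of 10 adipocyte, 11 of 11 macrophage and 7 of 7 neutrophil genes were below 0, at medians of -0.33, -0.19 and -0.81, with 0 called in each list by edgeR and 0, 0 and 4 at an unadjusted p under 0.05. Also below 0 were 5 of 5 erythroid, 7 of 8 brown adipocyte, 5 of 6 Schwann and 4 of 5 skeletal muscle genes. Above 0 were 7 of 9 endothelial, 5 of 7 smooth muscle and 4 of 7 fibroblast genes, and 0 were called in these lists. Over all genes 49.6% were below 0 and 13.6% reached an unadjusted p under 0.05.

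Per length of transcript, Nfe2l2 was the most abundant of the 10 genes in control aorta and the cystine transporter gene Slc7a11 the least. Dividing CPM by the length of all annotated exons in kb gave 76.9 ± 9.87 for Nfe2l2, 33.9 ± 4.69 for Gclc and 27.9 ± 2.74 for Txnrd1. Srxn1 followed at 15.0 ± 0.624, then Keap1 at 11.8 ± 1.07, Hmox1 at 11.7 ± 6.67, Nqo1 at 10.7 ± 1.09, Gclm at 7.04 ± 0.390, Osgin1 at 1.04 ± 0.309 and Slc7a11 at 0.178 ± 0.0434 CPM per kb. Control libraries of Gclc and Txnrd1 overlapped, as did those of Keap1 and Nqo1, and Hmox1 overlapped Txnrd1, Srxn1, Keap1, Nqo1 and Gclm, so the order within those pairs was not resolved. Exon lengths came from a later annotation, GENCODE M21 on GRCm38, and are approximate for counts made on mm9. The range of counts behind single values ran from 3766 to 7152 reads for Nfe2l2, and only from 16 to 78 reads for Slc7a11 and 33 to 106 for Osgin1, which limits the precision of the latter pair.

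The first comparison asked which of these transcripts differed with each drug from control. By edgeR, Srxn1 passed with rofecoxib and rose, and the other 9 members did not pass, while DESeq2 and limma voom also called Gclc and Nfe2l2. With celecoxib 0 members passed by edgeR, DESeq2 or limma voom, and 3 reached an unadjusted p under 0.05 by edgeR. The levels of the members in single libraries are plotted by group.

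**Figure D1:**
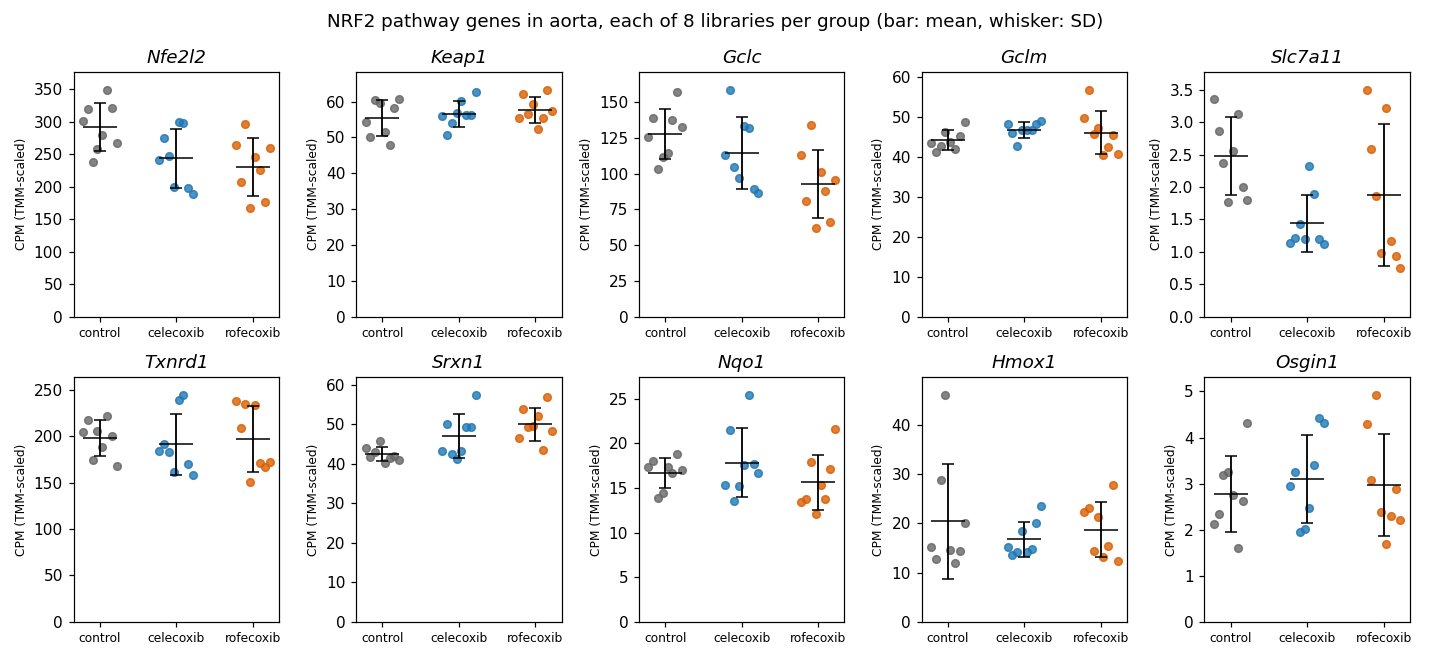
CPM after TMM scaling (vertical axis, from 0, a separate scale for each gene) of the 10 NRF2 pathway genes in each of 24 libraries, in 3 groups of 8, with points placed by replicate number and the black bar and whisker giving mean and SD. For Srxn1, 7 of 8 rofecoxib libraries lie above every control, and for Hmox1 the control library at 46.1 CPM lies far above the other 7.

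Among the thiol repair genes, Srxn1 encodes sulfiredoxin, which restores over-oxidised peroxiredoxins. It lies on chromosome 2 from 151931050 to 151937314 on mm9 (ENSMUSG00000032802). In control libraries it ran from 40.3 through a median of 41.8 to 45.7 CPM, in rofecoxib libraries from 43.5 through 49.4 to 56.8 CPM, and in celecoxib libraries from 41.2 through 46.3 to 57.4 CPM. Thus 7 of 8 rofecoxib and 4 of 8 celecoxib libraries were above every control, and the groups overlapped at their lower ends. With rofecoxib the mean rose from 42.4 ± 1.76 to 50.0 ± 4.20 CPM, or by 0.24 on the log2 scale (SE 0.06, 95% interval 0.11 to 0.36, edgeR adjusted p = 0.0257). With celecoxib the mean was 47.0 ± 5.45 CPM and the log2 fold change 0.15 (SE 0.06, 0.02 to 0.28, edgeR adjusted p = 0.293). It was called in 18 of 24 fits that each left out 1 library and lost without rofecoxib replicate 2 or 7 or control replicate 2, 5, 6 or 7, where edgeR adjusted p ran from 0.0520 to 0.0605 at log2 fold changes of 0.21 to 0.23. Within replicates 1 to 4 and 5 to 8 the rofecoxib values were 0.19 and 0.28 (edgeR adjusted p of 0.203 and 0.138 with 4 libraries a group). With adipocyte and skeletal muscle marker levels as covariates the value was 0.20 (edgeR adjusted p = 0.229), and with macrophage and neutrophil levels 0.18 (edgeR adjusted p = 0.163), so the sign held in these fits and the call did not.

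Txnrd1, the cytosolic thioredoxin reductase gene (chromosome 10, 82296494 to 82360671, ENSMUSG00000020250), had nearly the same mean in all groups. Control libraries ran from 168 through 203 to 222 CPM, celecoxib libraries from 158 through 184 to 244 CPM and rofecoxib libraries from 151 through 191 to 238 CPM. The drug groups spread on both sides of the controls, with 2 celecoxib and 3 rofecoxib libraries above every control and 2 of each below. The log2 fold changes were -0.05 with celecoxib (95% interval -0.27 to 0.17) and -0.00 with rofecoxib (-0.22 to 0.22).

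Of the genes for glutathione synthesis, Gclc encodes the catalytic subunit of glutamate-cysteine ligase, the rate-limiting enzyme (chromosome 9, 77602140 to 77642494, ENSMUSG00000032350). It ran from 103 through 129 to 157 CPM in control, from 86.6 through 109 to 159 CPM with celecoxib and from 62.1 through 91.8 to 134 CPM with rofecoxib. In the rofecoxib group 6 of 8 libraries were below every control. The means were 128 ± 17.7 in control and 92.6 ± 23.9 CPM with rofecoxib, -0.46 on the log2 scale (SE 0.14, 95% interval -0.76 to -0.17). This lay just beyond the threshold (edgeR adjusted p = 0.0501) and so was not called. DESeq2 and limma voom both called it lower (adjusted p of 0.022 and 0.014), as did 8 of 24 edgeR fits that each left out 1 library. With the adipocyte and skeletal muscle covariates it was -0.30 (edgeR adjusted p = 0.402), and within replicates 1 to 4 and 5 to 8 it was -0.30 and -0.63. With celecoxib Gclc was at 114 ± 25.1 CPM and -0.16 (SE 0.14, edgeR adjusted p = 0.627).

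The modifier subunit gene of the same enzyme, Gclm (chromosome 3, 121948273 to 121973104, ENSMUSG00000028124), did not share these values. It ran from 41.3 through 43.7 to 48.9 CPM in control, from 42.8 through 46.9 to 49.2 CPM with celecoxib and from 40.5 through 45.7 to 56.9 CPM with rofecoxib, and all groups overlapped. The log2 fold changes were 0.08 (95% interval -0.03 to 0.20) with celecoxib and 0.06 (-0.06 to 0.18) with rofecoxib, and the latter turned to -0.02 with the adipocyte and skeletal muscle covariates.

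Slc7a11 encodes the cystine and glutamate exchanger that supplies cysteine for glutathione (chromosome 3, 50168656 to 50247737, ENSMUSG00000027737), and it had the largest log2 fold change of the set with celecoxib. Control libraries ran from 1.77 through 2.46 to 3.35 CPM and celecoxib libraries from 1.12 through 1.21 to 2.32 CPM, with 6 of 8 celecoxib libraries below every control and 8 of 8 below the control median. Rofecoxib libraries spread from 0.749 through 1.51 to 3.50 CPM, 4 below every control and 1 above. The log2 fold change was -0.78 with celecoxib (SE 0.28, 95% interval -1.36 to -0.20, edgeR adjusted p = 0.241) and -0.40 with rofecoxib (SE 0.28, edgeR adjusted p = 0.340), and neither passed. With macrophage and neutrophil levels as covariates the celecoxib value was -0.54 (edgeR adjusted p = 0.467), and within replicates 1 to 4 and 5 to 8 it was -1.05 and -0.54.

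The regulators themselves did not pass by edgeR either. Nfe2l2 (chromosome 2, 75513368 to 75542900, ENSMUSG00000015839) ran from 238 through 290 to 349 CPM in control, from 189 through 245 to 300 CPM with celecoxib and from 167 through 235 to 296 CPM with rofecoxib. Below every control were 3 celecoxib and 4 rofecoxib libraries, and no drug library was above every control. The log2 fold changes were -0.26 (SE 0.12, edgeR adjusted p = 0.343) and -0.34 (SE 0.12, edgeR adjusted p = 0.0721), and DESeq2 and limma voom called the rofecoxib value at adjusted p of 0.043 and 0.022. It was -0.26 and -0.43 within replicates 1 to 4 and 5 to 8, and -0.20 (edgeR adjusted p = 0.490) with the adipocyte and skeletal muscle covariates. Keap1 (chromosome 9, 21033972 to 21043978, ENSMUSG00000003308) was the steadiest member, with a coefficient of variation of 7.25% over the 24 libraries. It was at 55.4 ± 5.03 CPM in control, 56.6 ± 3.65 with celecoxib and 57.7 ± 3.66 with rofecoxib, and its intervals of -0.08 to 0.15 and -0.05 to 0.17 on the log2 scale leave room only for small differences.

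Of the remaining targets, Nqo1 encodes a quinone reductase often used as a reporter of NRF2 activity (chromosome 8, 109911923 to 109927308, ENSMUSG00000003849). It was at 16.7 ± 1.70 CPM in control, 17.8 ± 3.85 with celecoxib and 15.6 ± 3.10 with rofecoxib, at log2 fold changes of 0.10 (95% interval -0.15 to 0.35) and -0.09 (-0.34 to 0.16). The drug groups were wider than control, with celecoxib libraries up to 25.4 CPM and rofecoxib libraries from 12.1 to 21.6 CPM against a control range of 13.8 to 18.8 CPM. Osgin1, an oxidative stress induced growth inhibitor gene (chromosome 8, 121957822 to 121970358, ENSMUSG00000074063), was at 2.77 ± 0.826, 3.10 ± 0.946 and 2.97 ± 1.11 CPM in control, celecoxib and rofecoxib libraries, and the 3 groups overlapped over most of their range.

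Hmox1 encodes the inducible heme oxygenase (chromosome 8, 77617288 to 77624697, ENSMUSG00000005413), and its values turned on 1 control library. Controls ran from 12.0 through 14.9 to 46.1 CPM, celecoxib libraries from 13.5 through 15.0 to 23.5 CPM and rofecoxib libraries from 12.4 through 18.4 to 27.8 CPM, and the medians of control and celecoxib were almost equal. The highest value came from control replicate 4, and no drug library was above every control or below every control. The log2 fold changes were -0.29 (SE 0.24) with celecoxib and -0.13 (SE 0.24) with rofecoxib, at edgeR adjusted p of 0.602 and 0.753. Without control replicate 4 they were -0.01 (SE 0.20) and 0.15 (SE 0.20).

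**Figure D2:**
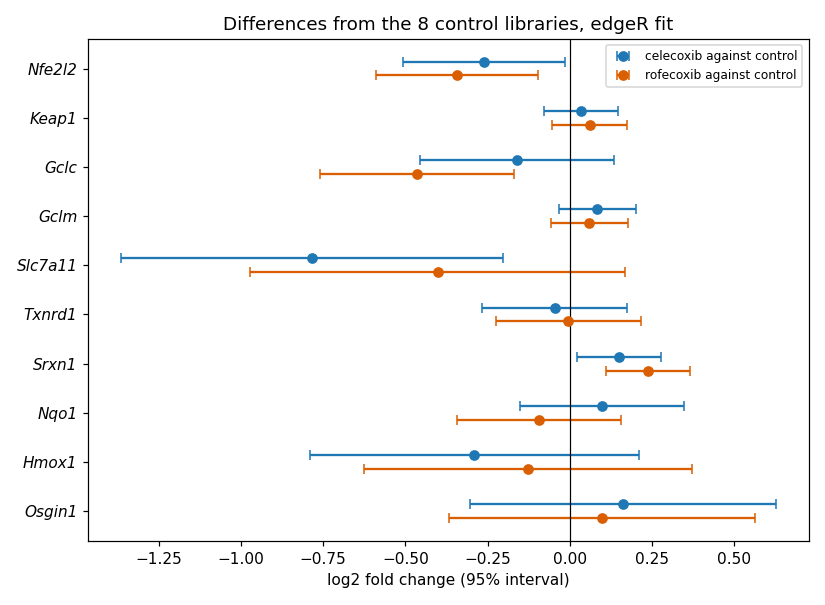
Log2 fold change against the 8 control libraries (horizontal axis) with 95% intervals from the edgeR fit, for celecoxib (blue) and rofecoxib (orange), 1 row for each of the 10 genes. The rofecoxib interval of Srxn1, 0.11 to 0.36, is the one that belongs to a gene called by edgeR, and the widest interval is that of Slc7a11 with celecoxib.

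Counted over the set, 1 of 10 members was called with rofecoxib, against 6.94% of all genes tested (3.88% higher and 3.06% lower), and 0 of 10 with celecoxib, against 0.0344% (0.00688% higher and 0.0275% lower). At an unadjusted p under 0.05 there were 3 members for each drug, Nfe2l2, Srxn1 and Slc7a11 with celecoxib and Nfe2l2, Gclc and Srxn1 with rofecoxib, where 13.6% and 28.2% of all genes reached it. DESeq2 and limma voom called 0 members with celecoxib and 3 with rofecoxib, where they called 1812 and 2448 of all genes with rofecoxib. The signs were mixed, 5 above and 5 below 0 with celecoxib at a median log2 fold change of -0.01 (50.4% and 49.6% of all genes), and 4 above and 6 below 0 with rofecoxib at a median of -0.05 (54.9% and 45.1% of all genes), where the medians of all genes were 0.00 and 0.02. No member had all 8 drug libraries beyond every control, which 0.234% of genes did with celecoxib and 0.785% with rofecoxib. Both comparisons share the 8 control libraries and are not independent.

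The second comparison set the drug groups against each other, at doses that differ. By edgeR 0 of 10 members were called, against 4.89% of all genes (0.564% higher and 4.32% lower), with 1 member at an unadjusted p under 0.05, which 23% of all genes reached, and 0 called by DESeq2 or limma voom. Above 0 were 5 members and below 0 another 5, beside 51.7% and 48.3% of all genes. The member at an unadjusted p under 0.05 was Gclc, whose celecoxib minus rofecoxib difference was 0.30 (SE 0.14, 95% interval 0.01 to 0.60, edgeR adjusted p = 0.204) on the log2 scale. For Srxn1 the difference was -0.09 (-0.21 to 0.04), for Nqo1 0.19 (-0.06 to 0.44), for Nfe2l2 0.08 (-0.16 to 0.33) and for Slc7a11 -0.38 (-0.97 to 0.20). These intervals do not show that the drugs act alike.

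The members differed in how they varied from library to library, and this was examined after each group's mean had been subtracted from log2 CPM. Over the 24 libraries, 13 of 45 pairs of members passed (permutation test of Pearson's r within groups, 100000 resamples, adjusted over the 45 pairs), 9 positive and 4 negative. All 13 kept their sign within replicates 1 to 4 and within replicates 5 to 8. The pairs were picked over these same libraries, so values within the sets are descriptions and not a separate test. Levels in 1 library share its tissue makeup and scaling, so these relations describe the libraries. How many pairs of other genes would pass the same test was not measured. The 13 of 45 are therefore not shown to be particular to this set.

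**Figure D3:**
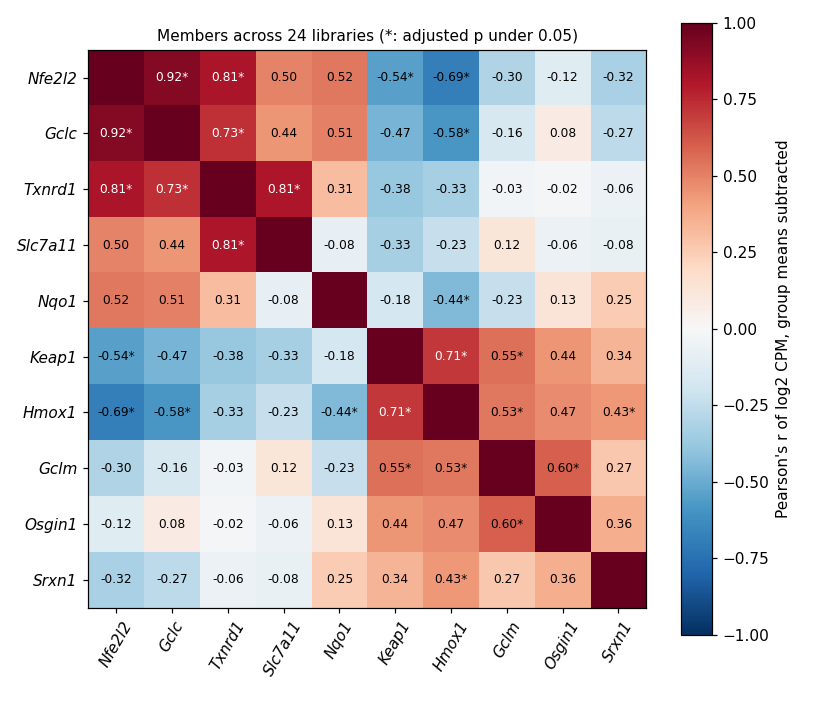
Pearson's r of log2 CPM between each pair of the 10 genes over 24 libraries after group means were subtracted, coloured from -1 (blue) to 1 (red), with an asterisk where the adjusted permutation p is under 0.05. Nfe2l2, Gclc and Txnrd1 form a positive corner, and Hmox1 is negative with Nfe2l2, Gclc and Nqo1 and positive with Keap1, Gclm and Srxn1. The pair of Hmox1 and Srxn1 does not pass by Spearman's rho (permutation test, adjusted p = 0.117). Without 2 libraries, neither that pair nor Hmox1 and Nqo1 passes (permutation test of Pearson's r, adjusted p of 0.185 and 0.075).

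Nfe2l2, Gclc and Txnrd1 went up and down together. Nfe2l2 and Gclc had a Pearson's r of 0.92 (permutation p = 1e-05, the smallest the resamples can give, adjusted p = 0.000338) and a Spearman's rho of 0.93 (permutation p = 1e-05, adjusted p = 0.00045). Without the 2 libraries farthest from the Nfe2l2 median r was 0.88, and it was 0.95 within replicates 1 to 4 and 0.92 within replicates 5 to 8. Nfe2l2 and Txnrd1 had an r of 0.81 (permutation p = 2e-05, adjusted p = 0.000338) and a rho of 0.79 (permutation p = 4e-05, adjusted p = 0.0009), with 0.75 without those 2 libraries and 0.91 and 0.84 within the 2 replicate sets. Txnrd1 in turn went with Slc7a11 at an r of 0.81 (permutation p = 3e-05, adjusted p = 0.000338) and a rho of 0.79 (permutation p = 0.0001, adjusted p = 0.0015). That r was 0.80 without the 2 libraries farthest from the Txnrd1 median, and 0.70 and 0.85 within the sets.

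The Hmox1 transcript ran against those of Nfe2l2 and Gclc. Since the Nfe2l2 transcript is not a measure of NRF2 activity, this sign does not bear on Hmox1 as a target. Its r with Nfe2l2 was -0.69 (permutation p = 3e-05, adjusted p = 0.000338) and its rho -0.68 (permutation p = 0.00021, adjusted p = 0.00189), with -0.66 without the 2 libraries farthest from the Nfe2l2 median and -0.58 and -0.90 within the replicate sets. Its sign was negative in each group, at -0.81 in control, -0.89 with celecoxib and -0.67 with rofecoxib libraries. With Gclc the r of Hmox1 was -0.58 (permutation p = 0.00075, adjusted p = 0.00482) and the rho -0.63 (permutation p = 0.00063, adjusted p = 0.00394). That r was -0.62 without the 2 libraries farthest from the Hmox1 median, and -0.48 and -0.79 within the sets. With Keap1 the r of Hmox1 was 0.71 (permutation p = 0.00027, adjusted p = 0.00243) and the rho 0.73 (permutation p = 0.00014, adjusted p = 0.00158). That r was 0.63 without the 2 libraries farthest from the Keap1 median, and 0.78 and 0.70 within the sets. The ligase subunit genes Gclc and Gclm, whose products form 1 enzyme, had an r of -0.16, which did not pass (permutation p = 0.560, adjusted p = 0.719; rho of -0.17, permutation p = 0.465, adjusted p = 0.598).

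**Figure D4:**
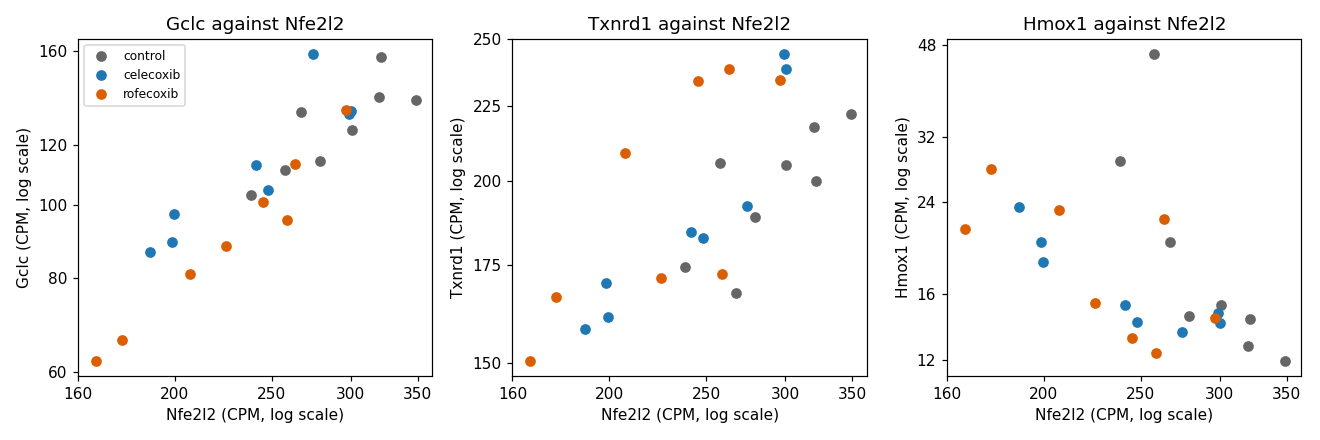
Gclc, Txnrd1 and Hmox1 (vertical axes) against Nfe2l2 (horizontal axis), in CPM on log scales, 1 point for each of 24 libraries coloured by group. Gclc and Txnrd1 climb with Nfe2l2 and Hmox1 declines, with the control library at 46.1 CPM of Hmox1 standing above the rest.

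The tested genes whose levels followed each member most closely, again with group means subtracted, were mostly outside the pathway and are named as a description. For Nfe2l2 they were Tbk1, which encodes a kinase of innate immune signalling, Vezf1 and Elf2, each at a Pearson's r of 0.96 over 24 libraries. For Txnrd1 they were Myd88, the adaptor of interleukin-1 and Toll-like receptors, Litaf and Tnip1, a binding partner of the NF-kB regulator A20, at 0.96, 0.95 and 0.94. For Hmox1 they were Amdhd2, Idh1, an NADP-dependent isocitrate dehydrogenase gene, and Flad1, a gene of FAD synthesis, at 0.91, 0.88 and 0.87. For Srxn1 they were Cilp, Gm15408 and the fibroblast gene Pi16 at 0.79, 0.79 and 0.79.

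Beyond the 10 members, 62 other genes of the pathway in 6 lists were all measured and tested. With rofecoxib 5 of 62 were called, 3 higher and 2 lower, which is near the 6.94% of all genes. At an unadjusted p under 0.05 by edgeR there were 33 of the 62 with rofecoxib, where 28.2% of all genes reached it. With celecoxib 0 of 62 were called by edgeR, while DESeq2 called 1 and limma voom 2. For celecoxib 11 of the 62 reached an unadjusted p under 0.05 by edgeR, beside 13.6% of all genes. With rofecoxib, library size alone as scaling called 9, 9 higher and 0 lower, RLE factors called 3, limma voom 21 and DESeq2 12. Of all genes these 4 called 1416, 1000, 2448 and 1812, so their counts are not to be set against the 6.94% of edgeR. Both fits with marker covariates called 0 of the 62 (11 and 13 at an unadjusted p under 0.05). Leaving out 1 library gave from 2 called, without rofecoxib replicate 7, to 13, without control replicate 4, with 12 without rofecoxib replicate 8, 8 without rofecoxib replicate 1, and 3 in 12 of the 24 fits. The median log2 fold change of the 62 was 0.12 with rofecoxib and 0.00 with celecoxib, beside 0.02 and 0.00 over all genes.

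**Figure D5:**
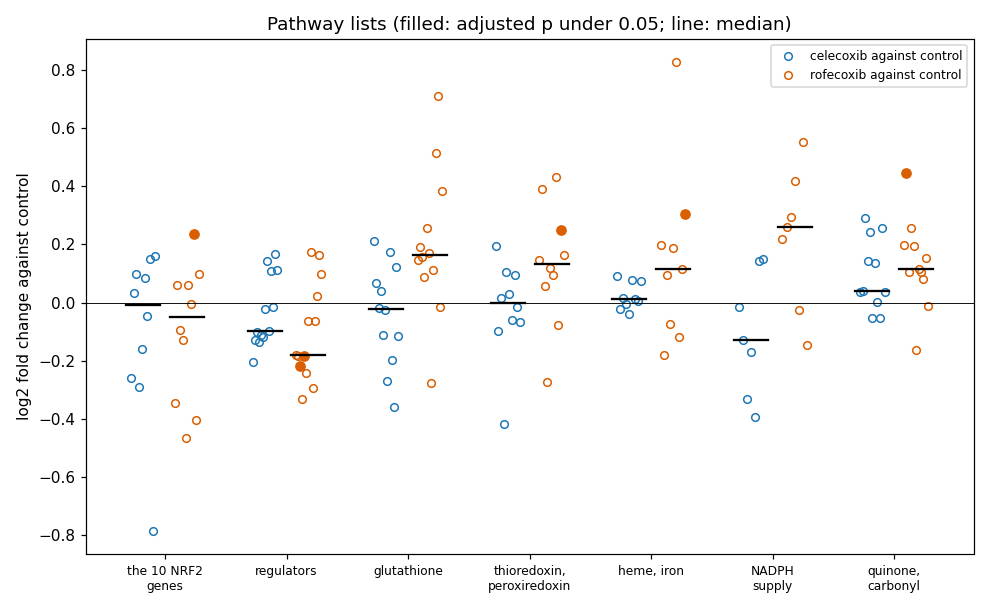
Log2 fold change against control (vertical axis) of each gene in the set of 10 and in 6 other pathway lists, for celecoxib (blue) and rofecoxib (orange), filled where the edgeR adjusted p is under 0.05, with a black line at each median. With rofecoxib the regulators lie mostly below 0 and the glutathione, thioredoxin, heme and iron, NADPH and quinone lists mostly above 0. The quinone list has 9 of 11 genes above 0 with each drug.

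Among the 13 regulators, Mafg and Mafk fell with rofecoxib, 2 of the 3 small MAF genes, which encode DNA-binding partners of NRF2. The other, Maff, was not called, at 227 ± 33.7 CPM in control and 180 ± 33.5 CPM with rofecoxib (log2 difference -0.33, SE 0.12, edgeR adjusted p = 0.0833). Mafg had means of 136 ± 7.81 CPM in control and 117 ± 7.87 CPM with rofecoxib, where 6 of 8 libraries lay under the lowest control, and its log2 difference was -0.22 (SE 0.05, edgeR adjusted p = 0.0236). Mafk had means of 141 ± 12.0 and 124 ± 3.94 CPM and a log2 difference of -0.18 (SE 0.05, edgeR adjusted p = 0.0232). They were the 2 called of 13, where 3.06% of all genes were called lower, and 9 of 13 were below 0 at a median of -0.18, where 45.1% of all genes were. Both calls were lost when library size alone was the scaling (edgeR adjusted p of 0.081 and 0.092) and with either pair of marker covariates (0.118 to 0.139) and in either replicate set alone (0.110 to 0.297), and that of Mafg without rofecoxib replicate 7 (0.051). With celecoxib 9 of 13 were below 0 at a median of -0.10 and 0 were called.

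In the heme and iron list, Tfrc, the transferrin receptor gene, rose with rofecoxib from 21.6 ± 1.05 to 26.7 ± 3.10 CPM (log2 fold change 0.30, SE 0.08, edgeR adjusted p = 0.0235), and 7 of 8 libraries were above every control. It was the 1 called of 9, where 3.88% of all genes were called higher. It was called in all 24 fits that each left out 1 library and in 9 of 13 alternatives, and lost with the marker covariates (edgeR adjusted p of 0.139 and 0.140) and in either replicate set alone (0.147 and 0.132). In the thioredoxin list Prdx5, a peroxiredoxin gene, rose by 0.25 (SE 0.08, edgeR adjusted p = 0.045), the 1 called of 10. In the quinone and carbonyl list Cbr1, a carbonyl reductase gene, rose by 0.45 (SE 0.14, edgeR adjusted p = 0.047), the 1 called of 11. The calls of Prdx5 and Cbr1 were each made in 8 of 24 fits without 1 library and in 6 of 13 alternatives. They were lost with RLE factors (edgeR adjusted p of 0.0513 and 0.0511), with no filter (0.0781 and 0.0739), in the 2 groups compared alone (0.0807 and 0.0713), in either replicate set alone, and with the adipocyte and skeletal muscle (0.504 and 0.576) or macrophage and neutrophil covariates (0.246 and 0.273). In the glutathione list 10 of 12 genes and in the NADPH list 5 of 7 were above 0 with rofecoxib, at medians of 0.16 and 0.26, with 0 called by edgeR and 6 and 5 at an unadjusted p under 0.05. Also above 0 were 8 of 10 thioredoxin, 6 of 9 heme and iron and 9 of 11 quinone and carbonyl genes, with 6, 6 and 3 at that p. Over all genes 54.9% were above 0 and 28.2% reached that p.

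Between the drugs, 6 of the 62 were called, 5 lower and 1 higher with celecoxib than with rofecoxib, against 4.89% of all genes. At an unadjusted p under 0.05 by edgeR there were 25 of the 62, beside 23% of all genes. Gsta4, a glutathione transferase gene, differed by -1.07 (SE 0.29), the pentose phosphate enzyme gene Taldo1 by -0.59 (SE 0.14), and the mitochondrial genes Prdx3, Txnrd2 and Nnt by -0.49 (SE 0.14), -0.49 (SE 0.13) and 0.30 (SE 0.06). Prdx5 differed by -0.27 (SE 0.08), and edgeR adjusted p over these genes ran from 0.037 to 0.043. Leaving out 1 library gave from 0 to 20 called of the 62, with 0 in 8 of 24 such fits (without celecoxib replicate 2, 3, 4 or 5 or rofecoxib replicate 2, 3, 4 or 7) and 20 without rofecoxib replicate 8, and each of the 6 genes was called in 8 to 16 of these fits. In the same contrast 10 of 10 adipocyte and 11 of 11 macrophage markers were below 0, at medians of -1.10 and -0.57. With either pair of marker covariates, with the control libraries left out of the fit, with no filter and with the replicate block, 0 of the 62 were called by edgeR, with 3, 1, 22, 24 and 23 at an unadjusted p under 0.05. In replicates 5 to 8 alone edgeR called 0 as well, with 9 at that p. Over all libraries and without covariates DESeq2 called 13 of the 62, and 1419 of the 14528 genes tested. The 9 of the 62 called by limma voom stand here without a share over all genes, so they are not a result about this list.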

How the data were processed

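Poly(A) RNA sequencing of thoracic aorta was deposited as 1 table of read counts per gene for 24 libraries, 8 a group. The deposited counts are whole numbers, and the submitters' processing notes list CASAVA 1.8.1, STAR 2.5.1b and mm9. Which program counted reads, on which annotation and with which strand option, is not given in the sources used here. Without strand, reads of the lowly counted genes overlapping Nfe2l2, Keap1 and Gclm (374, 915 and 377 reads in all) cannot be told apart. Libraries were built with 13 PCR cycles over 3 days, per the labels' protocols, and the day of each library was not used here. Members and lists were chosen with earlier results of these data known. All 10 members are named, and of the other lists the called genes.

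Counts were tested with edgeR 4.0.16 in R 4.3.3 (TMM, default filter, quasi-likelihood test, 1 mean per group, all 24 libraries), with Benjamini-Hochberg adjustment over 14528 genes and calls at an adjusted p under 0.05, two-sided. Intervals are 95%. Log2 CPM used a prior count of 2. On simulated data the edgeR test recovered 36% (celecoxib) and 26% (rofecoxib) of 50 genes changed 1.25-fold. It recovered 74% and 72% of 50 genes changed 1.5-fold. The same simulations also changed 50 genes 2-fold and 50 genes 3-fold, and each as a whole gave 10 and 6 false calls over all genes. Genes were drawn independently of each other there, while genes of the real libraries varied together, so the rates may differ in the real data. Small differences would thus often go uncalled. Alternatives were other scalings and filters, DESeq2 1.42.0, limma 3.58.1 voom, subsets, covariates, a replicate block and leaving out each library. No 2 libraries of a group agreed within sampling noise (chi-square per degree of freedom of at least 8.94).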

Additional observations from a re-analysis of the deposited data

How the results depend on the processing

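Over the alternatives, 0 members were called with celecoxib or between the drugs, and Srxn1 with rofecoxib kept its sign in all 13 alternatives and 24 fits without 1 library. The number of members called with rofecoxib was 2 with RLE factors, library size alone, a mean of at least 1 CPM, the replicate block or the replicate-set term, 3 by DESeq2 or limma voom, and 0 with no filter, either replicate set alone or either pair of marker covariates. The cause of these moves was not tested, except that a replicate set holds fewer samples.

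Called genes with celecoxib, rofecoxib and between the drugs numbered 5, 1008 (563 higher, 445 lower) and 710. With no filter they were 2, 557 and 0, and with the replicate-set term 174 and 1735 for each drug. In replicates 1 to 4 alone they were 9, 42 and 2073, and in 5 to 8 alone 313, 401 and 0. With adipocyte and skeletal muscle covariates they were 0 (2066 at an unadjusted p under 0.05 by edgeR), 22 and 0, and with macrophage and neutrophil covariates 1, 87 and 0. DESeq2 gave 110, 1812 and 1419, limma voom 121 and 2448 for each drug, and the 2 groups compared alone 45 with celecoxib and 0 between the drugs. Where edgeR called 0 genes between the drugs, those at an unadjusted p under 0.05 numbered 4367 with no filter, 2816 in the 2 groups alone, 896 in replicates 5 to 8, and 489 and 516 with the first and the other pair of covariates. Library size alone split the rofecoxib calls into 1106 higher and 310 lower. Leaving out 1 library gave 0 to 34, 358 to 1945 and 0 to 1997 genes, and 0 to 3 members with rofecoxib.

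Some signs turned, among them those of Slc7a11 between the drugs (-0.38 over all libraries) and of Hmox1 with celecoxib (-0.29). In replicates 1 to 4 alone the log2 values were -0.044 for Keap1 and -0.096 for Osgin1 with celecoxib, 0.051 for Txnrd1 with rofecoxib, and -0.12 for Gclm and -0.52 for Osgin1 between the drugs. In replicates 5 to 8 alone the log2 values were 0.25 for Hmox1 and 0.057 for Txnrd1 with celecoxib, 0.17 for Hmox1, -0.094 for Gclm and -0.32 for Osgin1 with rofecoxib, and 0.048 for Keap1, 0.083 for Hmox1, 0.13 for Txnrd1 and 0.10 for Slc7a11 between the drugs. With adipocyte and skeletal muscle covariates the log2 values were 0.055 for Nqo1, -0.023 for Gclm and -0.18 for Osgin1 with rofecoxib, and -0.095 for Nfe2l2 and 0.43 for Hmox1 between the drugs. With macrophage and neutrophil covariates the log2 values were -0.0046 for Gclm and -0.12 for Osgin1 with rofecoxib, and -0.052 for Nfe2l2, 0.012 for Keap1, 0.36 for Hmox1, 0.035 for Txnrd1 and 0.17 for Slc7a11 between the drugs. By limma voom the log2 values were -0.0036 for Nqo1 with celecoxib, 0.13 for Hmox1 with rofecoxib, and -0.056 for Osgin1 between the drugs. With library size alone the log2 values were 0.060 for Txnrd1 with rofecoxib, and -0.014 for Gclm between the drugs. Leaving out 1 library, the values that turned sign ran from -0.049 to 0.00044 for Keap1, from -0.027 to 0.21 for Osgin1, from -0.094 to 0.0018 for Txnrd1, from -0.00057 to 0.073 for Gclm between the drugs, and from -0.044 to 0.22 for Osgin1, from -0.048 to 0.044 for Txnrd1, from -0.23 to 0.15 for Hmox1 with rofecoxib.

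Of the 45 pairs of members, 13 passed, 17 with library size alone and 9 without the 2 libraries farthest from the median of 1 gene of the pair. Lost in the last were Nfe2l2 with Keap1, Keap1 with Gclm, and Hmox1 with Nqo1 and with Srxn1 (permutation test, adjusted p of 0.067 to 0.185). With the replicate number as a block, 27 genes were called with celecoxib, 1187 with rofecoxib and 0 between the drugs (3169 at an unadjusted p under 0.05 by edgeR), and 2 members with rofecoxib. Same-numbered libraries correlated from -0.30 to 0.56, at a median of 0.11 and over 0.1 in 12 of 24 pairs. They were the best match among 8 libraries in 13 of 48 comparisons, where numbers unrelated to the libraries would on average give 1 in 8. The labels state no pairing, so the main fit used none. Whether libraries of 1 number share something was not tested.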
